A study of Mus musculus with 8 samples.

Results

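M1 macrophages, treated with LPS and IFN-γ, were compared with M0 macrophages kept in media alone, on the 6 of the 8 arrays in the series whose labels give one of these treatments, 3 arrays of M0 and 3 of M1. The cells were bone marrow-derived macrophages of wild-type C57BL/6J mice, expanded in L929 supernatant, a source of macrophage colony stimulating factor, and washed and replated without it on day 7. M1 cultures then received LPS at 100 ng/ml together with IFN-γ at 20 ng/ml, M0 cultures received nothing further, and RNA was collected after 24 hours for Affymetrix mouse arrays. The other 2 arrays of the series, from M2 macrophages given IL-4 at 20 ng/ml, are set beside them for a few genes. In their titles the arrays are biological replicates, and the design text has those of a condition come from different mice. The methods of the study name both independent mice and in vitro replicates per condition, without saying which arrays share a mouse. So n is a number of arrays, and p-values measure the spread between arrays, which may be partly technical. LPS and IFN-γ were always given together and at a single time, so the share of each cannot be told apart.

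LPS, a cell wall component of Gram-negative bacteria, is bound by CD14, MD-2 and Toll-like receptor 4, which signal through MyD88 and TRIF to NF-κB, AP-1 and interferon regulatory factors. IFN-γ, secreted by T cells and NK cells, signals through JAK kinases and STAT factors and primes macrophages to kill microbes and present antigen. Macrophages that meet both signals are known for secreting IL-12, IL-1 and IL-6 and for making nitric oxide and itaconate.

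Intensities are on the linear scale of the deposited table, called units here, and the median array intensity was 38.9 to 40.4 units. Tests were made with limma on log2 intensities. Of 45037 probes, 944 (2.1%) were higher in M1 and 1109 (2.46%) lower at an adjusted p under 0.05 and at least 2-fold. With 1 probe per gene, 18193 genes were tested, of which 2494 (13.7%) were higher and 2092 (11.5%) lower at an adjusted p under 0.05 whatever the size of the change. "Rose" and "fell" refer to this gene rule, and the 2 percentages are the background for all counts of list members given here. The change was at least 2-fold for 509 of the raised and 583 of the lowered genes, and at least 4-fold for 143 and 140. The median log2 fold change over all genes was 0.02. Of the 509 raised genes, 82 had an M0 level under the array median, and 115 of the 583 lowered genes had an M1 level under it. A value in brackets after a gene, with no unit, is its log2 fold change in M1 against M0. Of the 372 called genes named here, 39 lost the call in at least 1 of 6 leave-one-out fits, each without 1 M0 or M1 array, and 22 lost it in 4 or more. The absolute log2 fold changes of these 39 had a median of 0.43, against 1.51 for the other called genes named, and each of the 22 is pointed out where it is described.

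**Figure D1:**
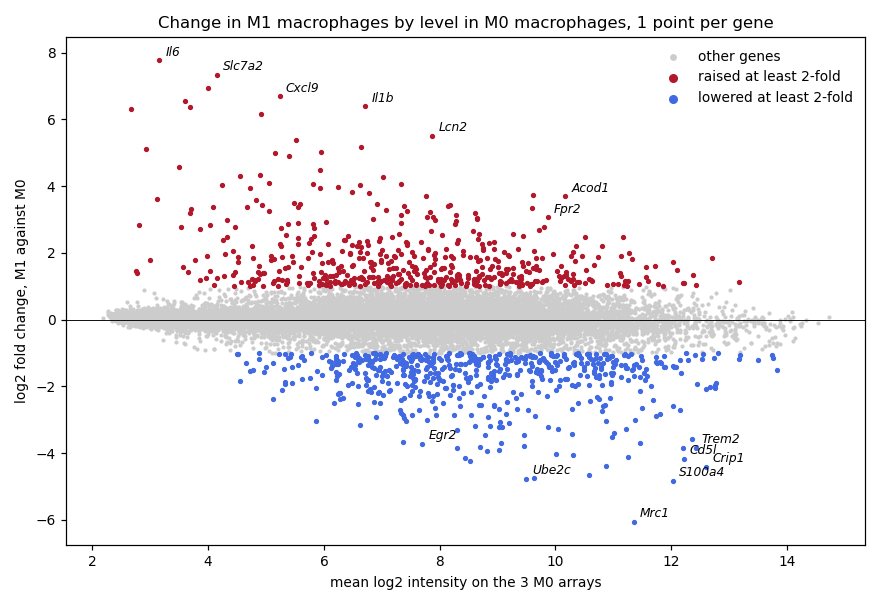
The x axis shows a gene's mean log2 intensity on the 3 M0 arrays and the y axis its log2 fold change in M1 against M0 for 18193 genes, with red points for the 509 genes raised and blue points for the 583 genes lowered at least 2-fold at a limma adjusted p under 0.05. Il6 and Slc7a2 stand at the top from levels near the bottom of the scale, whereas Mrc1, S100a4, Crip1 and Trem2 fell from high levels.

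The macrophage identity of both groups was checked with 12 defining markers. All 12 were above the array median on both groups, and their summed intensity was 109751 to 112839 units on the M0 and 104463 to 108551 units on the M1 arrays. The LPS co-receptor Cd14 rose (log2 fold change 0.89), while the lysosomal glycoprotein Cd68 (-0.72), the efferocytosis kinase Mertk (-0.85) and Laptm5 (-0.44) fell. Lysozyme Lyz2 (-0.10), the CSF-1 receptor Csf1r (-0.18), F4/80 Adgre1 (0.13) and PU.1 Spi1 (-0.07) were not called. With the mean over all its probes Csf1r was lower (-0.36, limma adjusted p = 0.0177). Of 83 marker entries of 9 other cell types, 10 were called higher and 5 lower. The T cell receptor chains Cd3d, Cd3e and Cd3g lay at 29.0, 60.0 and 9.90 units in M0 and at 29.8, 59.9 and 9.05 units in M1, although Cd28, a T cell costimulatory receptor, fell (log2 fold change -3.82). The T cell list, of which Cd28 was the brightest member in M0, summed to 706 to 813 units on M0 arrays and 314 to 342 units on M1 arrays. The neutrophil list summed to 1375 to 1557 units in M0 and 1621 to 1736 units in M1, with myeloperoxidase Mpo at 20.3 and 18.8 units. Of its 11 measured members 2 were called higher, the highest log2 fold change being 0.56, and 1 lower, Mmp8 (-0.59). B cell markers summed to 4921 to 5736 units in M0 and 6887 to 7111 units in M1, with the signalling adaptor Blnk as the brightest member and Pax5 at 54.4 and 57.2 units. Of these 10 markers 1 was called higher, Blnk (0.61), and 2 were called lower, the lowest log2 fold change being -2.46. NK cell markers summed to 160.4 to 171 units in M0 and 166 to 184 units in M1, and erythroid markers to 239 to 270.5 and 243 to 270.3 units. Endothelial markers summed to 249.6 to 275 units in M0 and 249.4 to 305 units in M1. Dendritic cell markers summed to 5481 to 6929 units in M0 and 9065 to 10273 units in M1, where the antiviral membrane protein Bst2 made up most of the sum and Zbtb46 lay at 51.8 and 56.3 units. Of these 9 markers 2 were called higher, Bst2 (0.62) and Ccr7 (3.95), and none lower. Fibroblast markers summed to 264 to 302 units in M0 and 316 to 479 units in M1, with the collagen chain Col1a1 at 26.3 and 23.4 units. Of the 11 fibroblast markers 2 were called higher, the highest log2 fold change being 1.18, and none lower. Mast cell markers summed to 222 to 228 units in M0 and 282 to 446 units in M1, where the histamine-forming enzyme Hdc rose (2.26) while the receptor Kit was at 16.6 and 18.1 units. What part other cells had in any result was not tested, and in these bulk cultures fewer cells of a type and less RNA per cell cannot be told apart.

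**Figure D2:**
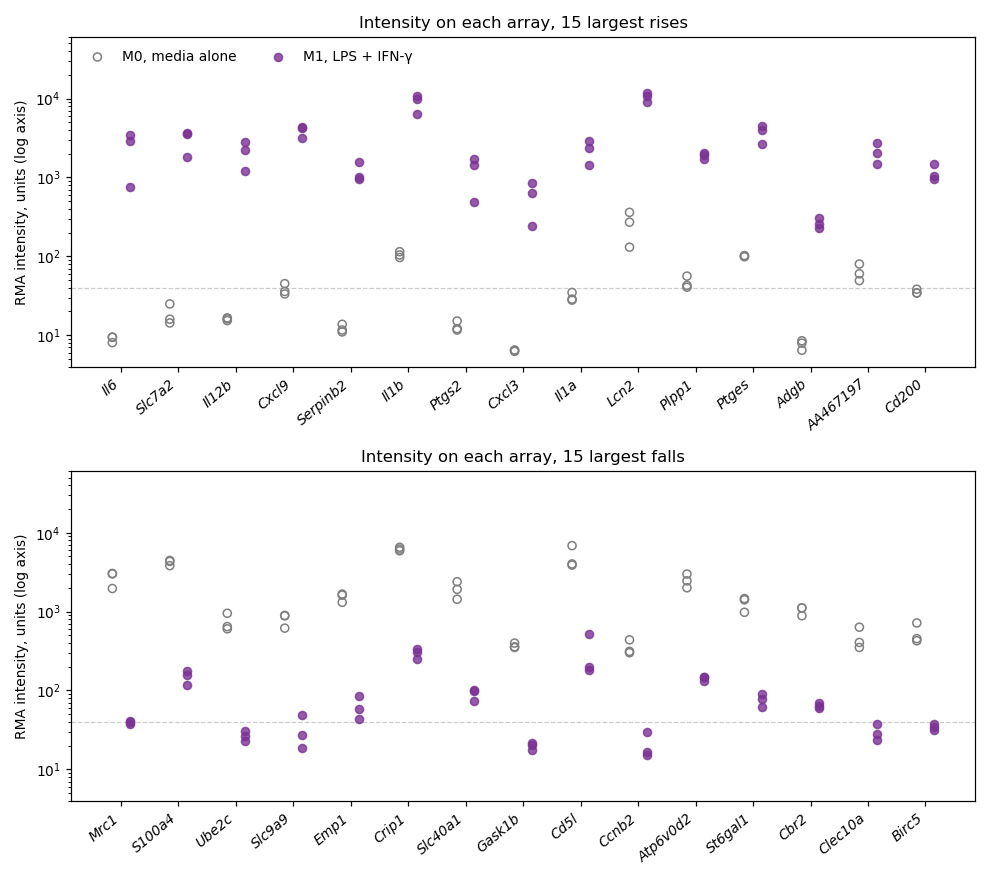
Each point is the RMA intensity of a gene on 1 array, on a log axis, for the 15 largest rises (top) and 15 largest falls (bottom), with open grey circles for the 3 M0 arrays, purple points for the 3 M1 arrays and a dashed line at 40 units, close to the array medians. In every gene shown the arrays of the groups do not overlap. The same was so for all 509 genes raised and all 583 genes lowered at least 2-fold. These genes were selected on the same arrays, which favours such a separation, so it is no separate support.

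The largest rise was that of Il6, a cytokine. It was at 9.46, 9.39 and 8.04 units on the M0 arrays and at 2875, 753 and 3416 units on the M1 arrays (log2 fold change 7.77, SE 0.48, limma adjusted p = 3.2e-07). The cationic amino acid transporter Slc7a2, which brings in arginine, went from 15.9, 24.9 and 14.3 to 3522, 1842 and 3655 units (log2 fold change 7.33, SE 0.25, limma adjusted p = 2.8e-09). Il12b, the p40 subunit shared by IL-12 and IL-23, went from 15.3, 16.1 and 16.6 to 2792, 1197 and 2252 units (log2 fold change 6.94, SE 0.25, limma adjusted p = 3.9e-09). All 3 were under the array median on every M0 array, and the second M1 array was the lowest of the M1 arrays for each. The plasminogen activator inhibitor Serpinb2 was at 11.6, 13.7 and 10.999 units in M0 and 943, 1019 and 1548 units in M1 (log2 fold change 6.56). The siderophore-binding protein Lcn2, which withholds iron from bacteria, went from 361, 271 and 131 to 11783, 10909.6 and 9178 units (5.499). Further rises of over 4 on the log2 scale were those of the phospholipid phosphatase Plpp1 (5.37), androglobin Adgb (5.11), AA467197 (5.02), the acid phosphatase Acpp (4.32), the triglyceride-forming enzyme Dgat2 (4.08), AI504432 (4.09) and the zinc finger gene Zfp811 (4.03). Adgb reached 259, 229 and 304 units from 7.94, 6.45 and 8.49 units, so that the 3 M1 arrays lay close together far above M0.

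The largest fall was that of the mannose receptor Mrc1. It was at 1963, 3008 and 3046 units in M0 and at 39.5, 37.5 and 41.6 units in M1 (log2 fold change -6.05, SE 0.15, limma adjusted p = 5.9e-10). The calcium-binding protein S100a4 went from 3827, 4336 and 4451 to 177, 156 and 117 units (log2 fold change -4.83, SE 0.16, limma adjusted p = 1.9e-09). Ube2c, the ubiquitin-conjugating enzyme of the anaphase-promoting complex, went from 646, 952 and 605 to 22.9, 26.2 and 30.7 units (log2 fold change -4.77, SE 0.18, limma adjusted p = 6.4e-09). Mrc1 and Ube2c ended under the array median on at least 1 M1 array, whereas S100a4 remained above it. Other falls of over 3.5 on the log2 scale that lie outside the groups described further on were those of the endosomal sodium/proton exchanger Slc9a9 (-4.74), Gask1b (-4.23), the sialyltransferase St6gal1 (-4.05), the carbonyl reductase Cbr2 (-4.01), the Fc receptor-like gene Fcrls (-3.85), the PCNA-binding factor Pclaf (-3.80), the tubulin regulator Stmn1 (-3.69), the LIF receptor Lifr (-3.66) and Tmem176b (-3.58). Fcrls fell from 4139.8, 5077 and 5062 units to 330.1, 393 and 275 units, and Tmem176b from 5357, 5404 and 4987 to 359, 571 and 414 units, so both started among bright genes.

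Promoter letters were read for genes that led these groups, from RefSeq windows of 300 bases (250 before and 50 after the annotated start, build GRCm38.p6). The 4 windows shown belong to the largest rise, the largest fall, the largest rise of the interferon-inducible GTPases with a usable entry and the largest fall of the mitosis list. Capitals mark matches, on either strand, to GGANTTTCC (NF-κB), TTCNNNGAA (the GAS of STAT factors), GAAANNGAA (core of the ISRE of interferon regulatory factors), the CCAAT box, the cell cycle element CHR with the letters TTTGAA, and TTTNGCGC (E2F), where adjoining or overlapping matches run together.
Il6 promoter, chr5:30012864-30013163, + strand: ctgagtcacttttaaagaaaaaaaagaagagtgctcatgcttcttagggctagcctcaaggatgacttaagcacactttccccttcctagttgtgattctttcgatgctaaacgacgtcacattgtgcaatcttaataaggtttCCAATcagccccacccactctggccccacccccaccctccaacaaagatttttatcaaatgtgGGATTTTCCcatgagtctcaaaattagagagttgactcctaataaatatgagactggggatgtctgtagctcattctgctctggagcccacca
Mrc1 promoter, chr2:14229164-14229463, + strand: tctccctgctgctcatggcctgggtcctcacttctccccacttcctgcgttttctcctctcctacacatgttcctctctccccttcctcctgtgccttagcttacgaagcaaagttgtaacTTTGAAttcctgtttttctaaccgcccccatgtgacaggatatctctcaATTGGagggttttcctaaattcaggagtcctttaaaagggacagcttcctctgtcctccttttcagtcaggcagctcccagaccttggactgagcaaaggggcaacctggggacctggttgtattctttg
Gbp3 promoter, chr3:142559794-142560093, + strand: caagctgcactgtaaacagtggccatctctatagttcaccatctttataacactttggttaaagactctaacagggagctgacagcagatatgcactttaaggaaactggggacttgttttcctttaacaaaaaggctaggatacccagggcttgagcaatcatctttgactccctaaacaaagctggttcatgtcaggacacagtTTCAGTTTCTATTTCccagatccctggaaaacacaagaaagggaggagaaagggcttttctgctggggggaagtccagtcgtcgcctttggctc
Ube2c promoter, chr2:164769679-164769978, + strand: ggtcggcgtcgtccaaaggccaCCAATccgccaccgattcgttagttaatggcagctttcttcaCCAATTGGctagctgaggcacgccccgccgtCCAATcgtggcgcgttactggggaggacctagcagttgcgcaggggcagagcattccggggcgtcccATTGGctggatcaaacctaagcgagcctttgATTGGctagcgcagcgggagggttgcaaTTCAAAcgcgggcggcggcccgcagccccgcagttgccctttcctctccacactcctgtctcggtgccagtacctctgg
The Il6 window held 1 NF-κB match, GGATTTTCC, and 1 CCAAT box. The Mrc1 window held 1 CCAAT box and 1 CHR. Gbp3 had 2 ISRE cores that overlap, TTCAGTTTC and TTCTATTTC in the orientation printed, and its other annotated start had none of the motifs. The Ube2c window held 6 CCAAT boxes and 1 CHR, TTCAAA as printed. The windows of Il12b and S100a4 held none of the 6 motifs. A match is a description of letters, not a measured binding site.

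The letters were also counted over groups of genes, beside all promoter windows. In the mitosis list 32 of 39 genes had an entry, with 34 windows, of which 27 (79.4%) held CHR and 26 (76.5%) CCAAT, against 17.9% and 37.4% of all 32851 windows. In the DNA replication list, with 32 windows of 27 genes, 10 (31.2%) held E2F against 1.38% of all windows, 19 (59.4%) held CCAAT and 4 (12.5%) held CHR. Of 8 windows of 7 GTPase genes, 6 (75.0%) held the ISRE core against 8.56% of all windows, and 3 (37.5%) held GAS against 8.3%. NF-κB letters were in 3 of 20 windows (15%) of the 25 largest rises and in 19 of 519 windows (3.66%) of all genes raised at least 2-fold, against 1.25% of all windows. In those 519 windows GAS was in 40 (7.71%) and the ISRE core in 55 (10.6%), against 8.3% and 8.56% of all windows. In the windows of genes lowered at least 2-fold, 8 of 623 (1.28%) held NF-κB letters. These are counts of windows, and some genes have several.

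Of 25 inflammatory cytokines and growth factors measured, 15 rose and 2 fell, with a median log2 fold change of 0.83. Il1b, the IL-1β precursor, was at 114, 96.6 and 104 units in M0 and 9836, 6392 and 10693 units in M1 (log2 fold change 6.39, SE 0.20, limma adjusted p = 1.7e-09). Its sister cytokine Il1a went from 27.8, 34.8 and 28.6 to 2344, 1438 and 2941 units (log2 fold change 6.15). The receptor antagonist of both, Il1rn, rose as well, from 259.9, 437 and 524 to 4219.9, 3027 and 3580.4 units (3.20). Both subunits of IL-12 thus rose, since Il12a, the p35 subunit, went from 11.7, 10.7 and 11.7 to 259, 174 and 431 units (4.57), whereas Il23a, the partner of p40 in IL-23, was at 10.7 and 10.4 units and was not called. The activin subunit Inhba (3.95), the cytokine Tnf (2.25), its family member Tnfsf9 (1.74) and the angiogenic factor Vegfa (1.64) followed. Tnf was measured at 177, 185 and 160.1 units in M0 and 727, 723 and 1070.4 units in M1. The 2 members that fell were Il10, which restrains macrophage activation, from 27.7, 29.2 and 32.0 to 13.8, 15.1 and 15.3 units (-1.01) and the growth factor Tgfb1 from 2412, 2119 and 2174 to 1418, 1459.7 and 1539 units (-0.60). Il10 was under the array median in both groups. The colony stimulating factors Csf2 (-0.04) and Csf3 (0.19), interferon Ifnb1 (0.23) and Il15 (0.11) were not called.

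Chemokines divided, with 12 of 24 raised and 5 lowered (median log2 fold change 0.49). The CXCR3 ligands, which attract activated T cells, rose together. Cxcl9 was at 45.032, 33.3 and 35.8 units in M0 and 4259, 4373 and 3195 units in M1 (log2 fold change 6.69, SE 0.15, limma adjusted p = 4.7e-10), Cxcl11 rose by 4.30 and Cxcl10 by 3.03 on the log2 scale. Of the neutrophil-attracting chemokines, Cxcl3 went from 6.47, 6.43 and 6.24 to 847, 241 and 627 units (log2 fold change 6.30, SE 0.48, limma adjusted p = 1.6e-06), Cxcl2 rose by 2.95 and Cxcl1 by 2.09, while Cxcl5 stayed at 6.07 and 6.11 units. Ccl22 (2.86) and, less so, Ccl17 (0.50), both ligands of CCR4, were among the raised, as was the T cell and monocyte attractant Ccl5, which was already bright in M0 at 11239.9, 8519.9 and 8062 units and reached 20259.8, 20689 and 19662 units in M1 (1.14). The 5 that fell were the monocyte attractant Ccl4 (-0.90), platelet factor Pf4 (-0.99), Ccl6 (-1.05), Cxcl14 (-1.13) and the CCR2 ligand Ccl12 (-1.47). Ccl17 lay under 64 units on every M0 and M1 array, and its call was lost in 4 of the 6 leave-one-out fits. Another CCR2 ligand, Ccl2, rose (1.45). Ccl3, which resembles Ccl4, was at 1801, 2169.9 and 2005 units in M0 and 2183, 2465 and 3096 units in M1 and was not called (0.36), as was the bright Ccl9 (0.05).

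Of 15 prostanoid and leukotriene enzymes, 5 rose and 4 fell (median log2 fold change -0.01). The inducible cyclooxygenase Ptgs2 was at 15.1, 11.6 and 12.1 units in M0 and 1726, 489 and 1420.4 units in M1 (log2 fold change 6.37, SE 0.37, limma adjusted p = 1.6e-07). Ptges, which turns its product into prostaglandin E2, went from 102, 99.0 and 99.7 to 4428, 2646 and 3949.7 units (log2 fold change 5.16, SE 0.16, limma adjusted p = 1.6e-09). The arachidonate-releasing phospholipase Pla2g4a (1.12), the platelet-activating factor hydrolase Pla2g7 (0.97) and Ptges2 (0.95) rose by smaller steps. The synthases of other prostanoids and the leukotriene enzymes made up the falls, namely the prostaglandin D synthase Hpgds (-1.76), the thromboxane synthase Tbxas1 (-0.89), the 5-lipoxygenase-activating protein Alox5ap (-1.01) and the leukotriene C4 synthase Ltc4s (-0.90). Hpgds fell from 622, 1058 and 1019.6 units to 268, 286 and 224 units. Lta4h (0.14), Ptgds (-0.01), Alox5 (-0.11), Alox15 (-0.24), Ptgis (-0.22) and the prostaglandin-degrading Hpgd (0.08) were not called. Receptors for prostaglandins also moved, with Ptger2 (1.56) and the prostacyclin receptor Ptgir (1.95) higher and Ptger4 (-2.16) lower.

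In the metabolism of arginine, nitric oxide and itaconate, 6 of 16 genes rose and 2 fell (median log2 fold change 0.37). Acod1, which makes itaconate from a TCA cycle intermediate, was at 1755, 939 and 932 units in M0 and at 14790.3, 15047 and 15081 units in M1 (log2 fold change 3.70, SE 0.24, limma adjusted p = 4.2e-07). The inducible nitric oxide synthase Nos2 went from 36.2, 38.4 and 40.3 to 273, 113 and 175 units (log2 fold change 2.20, SE 0.23, limma adjusted p = 2.4e-05). Gch1, the first enzyme of tetrahydrobiopterin, the cofactor of Nos2, rose (1.39), and so did the mitochondrial arginase Arg2 (2.77) and argininosuccinate lyase Asl (0.44). With values under 64 units set to 64, neither Nos2 (1.46, limma adjusted p = 0.0541) nor Arg2 (1.24, limma adjusted p = 0.102) was called. Argininosuccinate synthase Ass1 (0.31) and the arginine transporter Slc7a1 (0.43) were not called. The cytosolic arginase Arg1 was at 11.9, 12.3 and 10.5 units in M0 and at 17.6, 12.9 and 16.2 units in M1, and was not called (0.42). On the 2 M2 arrays it was at 7699 and 5761 units. Arg1 was called higher in M1 in a fit of the 6 M0 and M1 arrays alone (limma adjusted p = 0.0412) and with a replicate block (limma adjusted p = 0.0497). The same held without the second M1 array (limma adjusted p = 0.0174) and with the mean over all probes of a gene (limma adjusted p = 0.0439). The study counts Arg1 as raised in M1 cells too. Ido1, which degrades tryptophan, was at 13.4 and 13.3 units. The polyamine-acetylating enzyme Sat1 (-0.59) and Spr, the last enzyme of tetrahydrobiopterin (-0.43), fell, and the count of 2 became 1 without the first M0 or the first M1 array. Odc1 (0.05), Oaz1 (-0.15), Srm (-0.10) and Pts (0.10) were not called.

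Interferon-inducible GTPases, which attack the vacuoles of intracellular pathogens, rose in 8 of 12 cases and fell in none at this adjusted p (median log2 fold change 0.85). By leaving out 1 array at a time the number raised was 6 to 8. The guanylate-binding protein Gbp6 was at 197, 144 and 149 units in M0 and 1019, 1445 and 1154 units in M1 (log2 fold change 2.88, SE 0.15, limma adjusted p = 7.3e-08), and Gbp2 went from 2149.8, 1275 and 1785 to 6499.8, 6831 and 5476 units (log2 fold change 1.88, SE 0.23, limma adjusted p = 9.3e-05). Gbp3 (1.89), Gbp7 (1.24), Gbp8 (0.65), the antiviral GTPases Mx1 (1.33) and Mx2 (1.06) and Igtp (0.47) made up the rest. The immunity-related GTPases Iigp1 (0.37), Irgm1 (0.33), Irgm2 (-0.26) and Ifi47 (0.02) were not called. The calls of Gbp8 and Igtp were each lost in 4 of the 6 leave-one-out fits, and that of Igtp also with a replicate block (limma adjusted p = 0.0705) and in a fit of the 6 M0 and M1 arrays alone (limma adjusted p = 0.0507). Ifi47 was bright in both groups, at 2308, 1859 and 2599 units in M0 and 1978, 2532 and 2340.2 units in M1.

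Type I interferon antiviral genes rose in 18 of 29 cases and fell in 2 (median log2 fold change 0.59). The largest rises were those of the oligoadenylate synthase-like Oasl1 (2.78), Herc6 (2.14), the exonuclease Isg20 (2.12), the ISG15 protease Usp18 (1.90) and the RNA-binding Ifit1 (1.86). Oasl1 was at 1064, 536 and 1248 units in M0 and 6584, 5514 and 6337 units in M1. Viperin, Rsad2, was among the brightest of the raised genes, at 5595, 3656 and 5319.9 units in M0 and 9529, 10894 and 10466 units in M1 (1.11). The RNA sensors Ifih1 (0.83), Ddx58 (0.82) and Dhx58 (0.83) rose by less than 1 on the log2 scale. Oas2 (-0.51) and Ifi27l2a, from 4653, 6282 and 5596 to 2460.4, 2940.3 and 2467 units (-1.07), fell, and Oas2 lost its call in each of the 6 leave-one-out fits, which left 1 of these 2. The bright Ifitm3 (0.02), Rtp4 (0.09), Oasl2 (0.37) and Ifi35 (0.41) were not called. The second array of each group stood apart in these genes, which bears on both lists. The second M0 array was the lowest of the M0 arrays for 26 of the 29 genes and for 11 of the 12 GTPases, and the second M1 array was the highest of the M1 arrays for 22 of the 29 and for 11 of the 12. Without the second M0 array 14 antiviral genes were raised, and without the second M1 array 16. The median of the GTPases was 0.80 without the second M0 array and 0.67 without the second M1 array.

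In the antigen presentation pathways, 10 of 17 genes of MHC class I processing rose and 1 fell (median log2 fold change 0.39). The peptide transporters Tap1 (1.21) and Tap2 (1.10) and the editor Tapbpl (1.05) rose most, and the immunoproteasome subunits Psmb9 (0.64), Psmb8 (0.61) and Psmb10 (0.42) by less. With the mean over all probes of the gene Tap1 rose by 0.48, less than Psmb8 (0.65) and Psmb9 (0.64). The heavy chains H2-K1 (0.22) and H2-D1 (0.09) and the light chain B2m (0.09) were bright in both groups and were not called, B2m being at 17141, 17907 and 17985 units in M0 and 18928, 18879 and 18499 units in M1. H2-K1 was higher with the mean over all its probes (0.33, limma adjusted p = 0.00792). It also passed with values under 64 units set to 64 (limma adjusted p = 0.00214). Calreticulin, Calr, a chaperone of the loading complex, fell (-0.70).

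Of 12 genes of MHC class II presentation, 6 rose and 4 fell (median log2 fold change 0.42). H2-Ab1, the beta chain of I-A, was at 429.6, 336 and 445 units in M0 and 3411, 2548 and 3857 units in M1 (log2 fold change 3.01, SE 0.17, limma adjusted p = 1.5e-07), and its partner alpha chain H2-Aa went from 470.4, 315 and 424 to 681, 897 and 899.5 units (log2 fold change 1.04, SE 0.20, limma adjusted p = 0.002). The invariant chain Cd74 (0.73), H2-Eb1 (0.69), H2-Oa (0.67) and H2-Ob (1.45) rose too, although H2-Ob lay under 64 units on every M0 and M1 array. The legumain protease Lgmn (-0.98), the thiol reductase Ifi30 (-0.98), cathepsin S, Ctss (-0.30), and the class II transactivator Ciita (-0.46) fell. Ctss lost its call in each of the 6 leave-one-out fits and with a replicate block (limma adjusted p = 0.0805), and H2-Eb1 in 5 of the 6. Ciita was dim, at 36.1, 31.9 and 36.8 units in M0 and 25.9, 23.9 and 26.6 units in M1, and with the mean over all its probes its log2 fold change was -0.04 (limma adjusted p = 0.852). The peptide exchangers H2-DMa (-0.40) and H2-DMb2 (0.17) were not called. Without the third M0 array 2 of the 4 falls passed.

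Ligands and receptors that act on T cells rose in 10 of 18 cases and fell in 4 (median log2 fold change 1.12). Cd200, ligand of an inhibitory myeloid receptor, was at 38.2, 34.5 and 34.1 units in M0 and 1488, 1035 and 962 units in M1 (log2 fold change 5.003, SE 0.15, limma adjusted p = 1.2e-09), and Cd40, which receives T cell help, went from 171, 157 and 155 to 2912, 2345 and 2893 units (log2 fold change 4.07, SE 0.13, limma adjusted p = 1.6e-09). PD-L1, encoded by Cd274, rose by 2.69 and PD-L2, encoded by Pdcd1lg2, by 0.75 on the log2 scale, although Pdcd1lg2 lay under 64 units on every M0 and M1 array. Of the CD28 ligands, Cd86 rose (1.57) and Cd80 was not called (0.36). With the mean over all its probes Cd80 was higher (0.40, limma adjusted p = 0.00531). Slamf7 (2.07), Slamf1 (1.55), the adhesion molecule Icam1 (1.51) and the ICOS ligand Icosl (1.495) rose. Cd83, a marker of mature dendritic cells, fell from 414, 505 and 512 to 182, 158 and 137 units (-1.59), as did the inhibitory VISTA, Vsir (-1.08), TIM-3, Havcr2 (-1.05), and OX40 ligand, Tnfsf4 (-0.41). Lgals9 (0.31), Cd276 (-0.11) and Cd70 (-0.01) were not called.

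**Figure D3:**
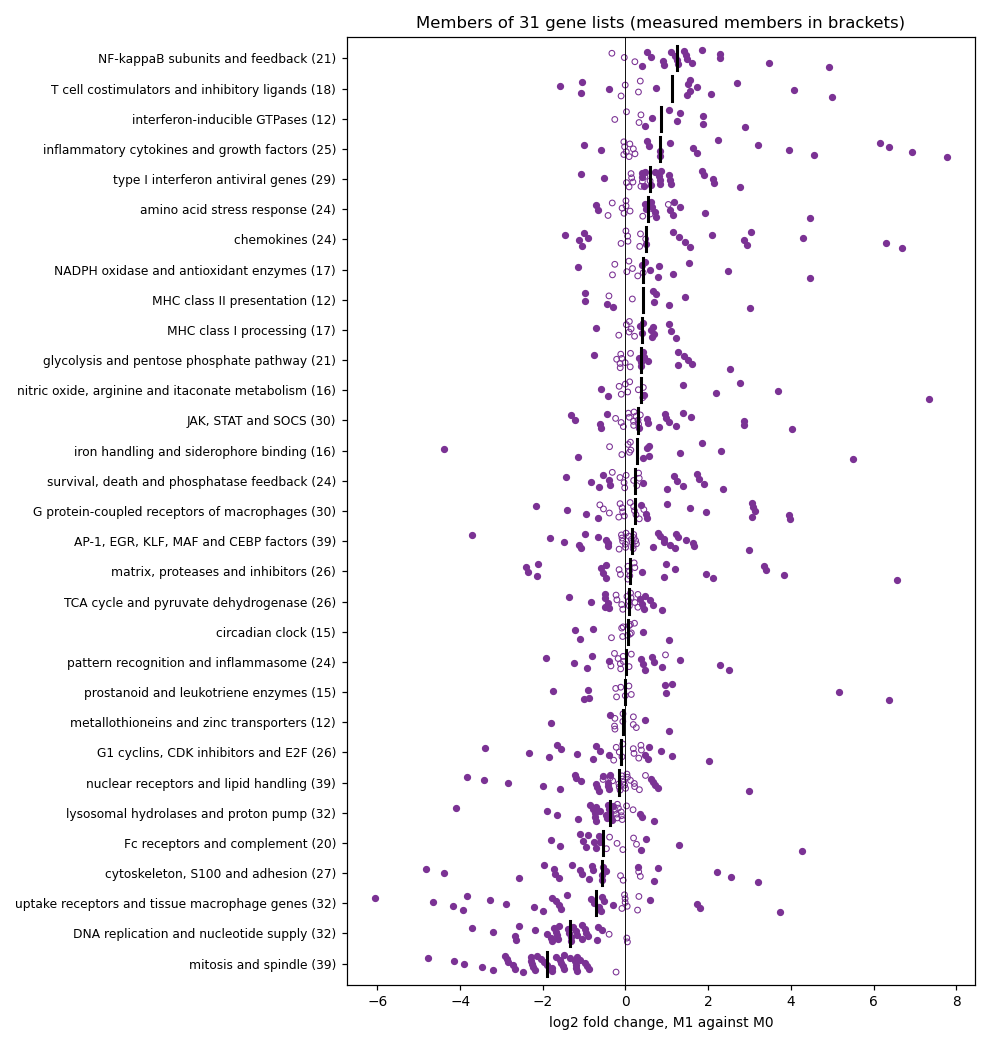
Each point is the log2 fold change in M1 against M0 of 1 gene in 1 of 31 gene lists, ordered by median, with filled points for genes at a limma adjusted p under 0.05, open points for the others and a black bar at each list's median. The lists for NF-κB, T cell costimulators and interferon-inducible GTPases have the highest medians and those for mitosis and DNA replication the lowest, while lists such as matrix genes and uptake receptors hold large changes in both directions.

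Genes of NF-κB and its feedback rose in 18 of 21 cases, the highest median of the 31 lists (log2 fold change 1.25), and none passed in the other direction, although 1 did without the second M1 array. Traf1, an adaptor of TNF receptors, was at 51.7, 38.7 and 36.7 units in M0 and 1293, 1089.9 and 1435 units in M1 (log2 fold change 4.92, SE 0.16, limma adjusted p = 1.7e-09). The paracaspase Malt1 went from 117, 126 and 119 to 1712, 990.4 and 1387 units (log2 fold change 3.46, SE 0.16, limma adjusted p = 3.5e-08). The inhibitors of the pathway rose, among them A20, Tnfaip3 (2.30), and the IκB genes Nfkbia (1.49), Nfkbib (1.62) and Nfkbie (1.41). Nfkbia was the brightest, at 4943, 4397 and 3891 units in M0 and 11943, 12092 and 12887 units in M1. Of the subunits, Nfkb2 (2.29), Rel (0.94) and Relb (0.92) rose, whereas Rela was at 2064, 2088 and 1914 and 1770.4, 2032 and 2158 units and was not called (-0.03). The deubiquitinase Cyld (0.23) and the kinase Ikbke (-0.33) were not called either.

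Among JAK, STAT, SOCS and interferon regulatory genes, 13 of 30 rose and 5 fell (median log2 fold change 0.31). Socs3, which blocks gp130 receptors, was at 149, 116 and 54.6 units in M0 and 1666, 1586 and 1534 units in M1 (log2 fold change 4.02, SE 0.33, limma adjusted p = 3.1e-06), and Socs1, which blocks JAK kinases, went from 51.0, 49.976 and 68.3 to 461, 280.2 and 517 units (log2 fold change 2.86, SE 0.21, limma adjusted p = 1.2e-06). Jak2, a kinase of the IFN-γ receptor, rose from 324, 310.3 and 285 to 2345, 1995 and 2389 units (log2 fold change 2.87, SE 0.13, limma adjusted p = 3.2e-08). The chains of the IFN-γ receptor moved in opposite directions, with the ligand-binding Ifngr1 falling from 1172, 1466 and 1551 to 539, 659.8 and 491 units (-1.31) and the signalling chain Ifngr2 rising from 1100.2, 1238 and 1477 to 3772, 2949 and 3186 units (1.38). Both chains of the type I interferon receptor, Ifnar1 (1.05) and Ifnar2 (0.99), rose. Stat4 (1.58), Stat2 (1.21), Irf7 (0.95) and Irf1 (0.53) rose, and Irf8 (-0.44), Irf5 (-0.60), Irf2 (-0.61) and Socs6 (-1.21) fell. Stat6 (-0.10), Stat3 (0.32), Irf3 (-0.05) and Tyk2 (0.19) were not called.

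The sensors of microbes rose in 9 of 24 cases and fell in 5 (median log2 fold change 0.02). Tlr2, the receptor for bacterial lipoproteins, was at 703, 687 and 701 units in M0 and 4083, 3167 and 4681 units in M1 (log2 fold change 2.49, SE 0.17, limma adjusted p = 7.3e-07). The LPS receptor Tlr4 fell from 314, 378 and 419 to 132, 181 and 157 units (log2 fold change -1.25, SE 0.14, limma adjusted p = 3.3e-05), together with its partner MD-2, Ly96 (-0.39). The endosomal receptors Tlr13 (-1.92), Tlr8 (-0.94) and Tlr7 (-0.81) fell, and Tlr3 (-0.27) and Tlr9 (-0.18) were not called. Irak3, an inhibitory kinase homologue of this pathway, rose (2.27) and so did Irak2 (1.33), gasdermin D, Gsdmd (0.70), Casp4 (0.46) and Nlrp3 (0.42). The calls of Ly96, Casp4 and Nlrp3 were each lost in 5 of the 6 leave-one-out fits. The adaptors Myd88 (-0.12) and Pycard (-0.35) and caspase 1, Casp1 (0.09), were not called. Pycard was lower with the mean over all its probes (-0.59, limma adjusted p = 0.00357).

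Receptors coupled to G proteins rose in 12 of 30 cases and fell in 4 (median log2 fold change 0.24). Fpr2, a formyl peptide receptor, was at 1205, 835 and 812 units in M0 and 7358, 7827 and 8276 units in M1 (log2 fold change 3.06, SE 0.16, limma adjusted p = 8.9e-08), against 34.7 and 48.4 units in M2. Gpr18, a receptor for lipid mediators, went from 178, 162 and 143 to 1256, 1451 and 1536 units (log2 fold change 3.13, SE 0.16, limma adjusted p = 6.7e-08), against 76.8 and 48.5 units in M2. The nicotinic acid receptor Hcar2 was at 78.0, 71.4 and 77.5 units in M0 and 1229, 773 and 1776 units in M1 (log2 fold change 3.98, SE 0.23, limma adjusted p = 1.5e-07). In each of these 3 genes the lowest M1 array was several times the highest M0 array. Gpr84, a receptor for medium-chain fatty acids (3.08), the chemerin-binding Ccrl2 (3.07) and the lymph node homing receptor Ccr7 (3.95) rose by similar steps. Cxcr3 (-1.42), the acid-sensing Gpr65 (-0.97) and the leukotriene receptor Cysltr1 (-0.67) fell beside Ptger4. P2ry6 (-0.13), S1pr2 (-0.08), Cxcr4 (-0.62) and P2ry14 (-0.39) were not called.

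Uptake receptors and genes of tissue macrophages fell in 21 of 32 cases and rose in 4 (median log2 fold change -0.71). Trem2, a lipid-sensing receptor, was at 4888, 5657 and 5944 units in M0 and 459, 407 and 296 units in M1 (log2 fold change -3.85, SE 0.17, limma adjusted p = 1.8e-08). Cd5l, a scavenger protein of resident macrophages, fell from 4023, 6860.2 and 3890.1 to 200.4, 521 and 179 units (log2 fold change -4.16, SE 0.39, limma adjusted p = 8.5e-06), and the membrane protein Emp1 from 1311, 1669 and 1617 to 58.4, 84.7 and 43.9 units (log2 fold change -4.66, SE 0.20, limma adjusted p = 1.4e-08). Cd5l was highest on the second array in both groups. With the mean over all probes of the gene, the falls of Trem2 (-1.93) and Emp1 (-2.35) were smaller but still called. The galactose lectin Clec10a (-3.94), the bridging ligand Gas6 (-3.27), Dectin-1, Clec7a (-2.88), the anticoagulant Pros1, which like Gas6 bridges apoptotic cells to their receptors (-2.21), and the scavenger receptor Cd36 (-2.01) followed. The genes that rose were receptors as well. Mincle, Clec4e, which binds mycobacterial glycolipids, went from 1022, 641 and 728 to 11359, 9405 and 10687 units (log2 fold change 3.74, SE 0.24, limma adjusted p = 4.0e-07), and the scavenger receptor Marco from 4544, 3959 and 4048 to 13592, 11675 and 16526 units (log2 fold change 1.72, SE 0.23, limma adjusted p = 0.00015). Olr1 (1.80) and the kinase Axl (0.60) rose. Olr1 lay under 64 units on every M0 and M1 array. Axl lost its call in 4 of the 6 leave-one-out fits and with the mean over all its probes (0.26, limma adjusted p = 0.144). The related lectins Clec4d (-0.09) and Clec4n (-0.01), the scavenger receptor Msr1 (0.29) and Itgav (0.32) were not called.

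Fc receptors and complement fell in 10 of 20 cases and rose in 4 (median log2 fold change -0.54). The inhibitory Fc receptor Fcgr2b rose from 2861, 3085 and 3193 to 7199.6, 7533 and 7527 units (log2 fold change 1.29, SE 0.12, limma adjusted p = 7.0e-06). The activating receptors Fcgr3 (-0.96) and Fcgr4 (-1.11) fell, as did the recycling receptor Fcgrt (-1.59), and Fcgr1 (-0.39) was not called. Factor B, Cfb, of the alternative pathway went from 184, 112 and 107 to 2462, 2203 and 2959.8 units (log2 fold change 4.28, SE 0.18, limma adjusted p = 1.8e-08), while its partner properdin, Cfp (-0.90), and the C1q chains C1qa (-0.64), C1qb (-0.71) and C1qc (-0.76) fell. The receptor of C5a, C5ar1, fell from 1809, 3434 and 4266 to 788, 898 and 893 units (-1.80) and that of C3a, C3ar1, by less (-0.62). The dim decay accelerator Cd55 fell (-1.03), and Serping1 (0.49), under 64 units on every M0 and M1 array, and C1ra (0.38) rose slightly. Fcer1g (0.20), Itgam (0.27), Cr1l (-0.20), Itgax (-0.46) and C2 (-0.06) were not called. Serping1 lost its call in 5 and C1ra in 4 of the 6 leave-one-out fits, and without M0 replicate 1, M0 replicate 2 or M1 replicate 3, 2 of the 4 rises passed.

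Cell division genes fell almost without exception. In the mitosis list 38 of 39 genes fell and none rose, with a median log2 fold change of -1.90, the lowest of the 31 lists. The cyclin Ccnb2, which drives entry into mitosis, was at 313, 438 and 301 units in M0 and 16.6, 29.8 and 15.3 units in M1 (log2 fold change -4.14, SE 0.24, limma adjusted p = 1.7e-07). Survivin, Birc5, of the chromosomal passenger complex went from 454, 718 and 427 to 31.3, 38.1 and 34.7 units (log2 fold change -3.90, SE 0.21, limma adjusted p = 1.2e-07), and the cyclin Ccna2 from 549, 944 and 661 to 70.9, 63.5 and 56.7 units (log2 fold change -3.46, SE 0.19, limma adjusted p = 9.6e-08). In each of these the second M0 array was the highest. Cdca3 (-3.20), the kinesin Kif20a (-2.91), the centromere proteins Cenpf (-2.87) and Cenpa (-2.67), the kinase Pbk (-2.85) and the proliferation marker Mki67 (-1.19) fell, and Hmmr (-0.23) was the exception. With values under 64 units set to 64, Kif20a was not called (-0.90, limma adjusted p = 0.159). Of 32 genes of DNA replication and nucleotide supply, 29 fell and none rose (median -1.34). Rrm2, the small subunit of ribonucleotide reductase, went from 389.9, 747 and 530.3 to 39.3, 46.5 and 38.4 units (log2 fold change -3.70, SE 0.21, limma adjusted p = 1.7e-07). The MCM helicase subunits Mcm5 (-3.21), Mcm7 (-2.68), Mcm3 (-1.64), Mcm6 (-1.61), Mcm4 (-1.36) and Mcm2 (-1.31) all fell, as did thymidine kinase Tk1 (-2.59) and the sliding clamp Pcna, still at 3782, 4554 and 3858 units in M1 after 8203, 10145 and 9392 units in M0 (-1.19). Tyms (0.05), Orc1 (0.03) and Orc6 (-0.40) were not called.

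**Figure D4:**
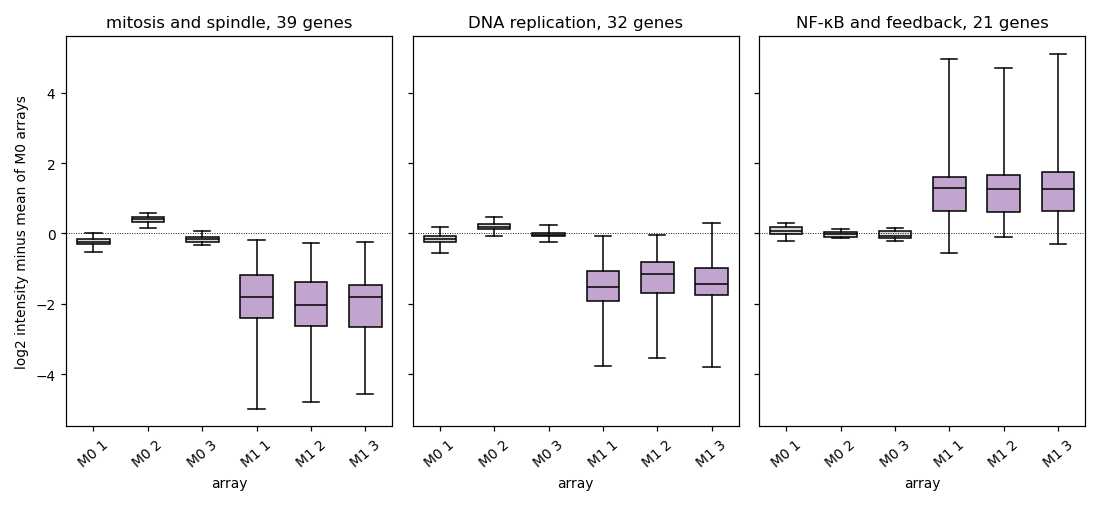
For each array the box shows the quartiles, the line the median and the whiskers the lowest and highest of log2 intensity minus the gene's mean over the M0 arrays, for 39 mitosis genes, 32 DNA replication genes and 21 NF-κB genes. The second M0 array lies above the other M0 arrays for mitosis genes (median 0.41 against -0.24 and -0.17), and all 3 M1 arrays lie well below them.

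The M0 arrays were not alike in cell division. The second M0 array was the highest of the 3 for all 39 mitosis genes and for 27 of the 32 replication genes, by a median of 0.41 and 0.19 on the log2 scale above the M0 mean. Without it the median of the mitosis list was -1.63, with 38 of 39 genes still lower in M1, and that of the replication list was -1.24, with 27 lower. In M1 the second array was the highest of the 3 for 23 of the 32 replication genes but for 13 of the 39 mitosis genes.

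The regulators of G1 were mixed, with 6 of 26 raised and 10 lowered (median log2 fold change -0.12). Cyclin D1, Ccnd1, fell from 1907, 2127 and 2166 to 173, 265 and 165 units (log2 fold change -3.39, SE 0.19, limma adjusted p = 1.3e-07), whereas cyclin D2, Ccnd2, rose from 339.6, 269 and 287 to 609, 666 and 662 units (log2 fold change 1.12, SE 0.11, limma adjusted p = 1.3e-05) and cyclin D3, Ccnd3, by less (0.57). The atypical E2F genes E2f7 (-2.33) and E2f8 (-1.67), the cyclin Ccne2 (-1.86) and the kinase Cdk6 (-1.18) fell. Ccne2 lay under 64 units on every M0 and M1 array. With values under 64 units set to 64, E2f7 was not called (-0.34, limma adjusted p = 0.584). Of the CDK inhibitors, Cdkn1a (0.47) and Cdkn2b (0.55) rose, Cdkn2c (-1.55) and Cdkn1c (-0.78) fell, and Cdkn1b (0.37) was not called. The call of Cdkn1a was lost in 4 of the 6 leave-one-out fits, and that of Ccnd3 with the mean over all its probes (0.17, limma adjusted p = 0.17). The stress gene Gadd45b rose most in this list (2.03), and Mdm2, which degrades p53, rose (0.85). Rb1 (0.19), E2f1 (0.32) and Cdkn2d (-0.15) were not called.

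Transcription factors of the AP-1, EGR, KLF, MAF and C/EBP families rose in 13 of 39 cases and fell in 10 (median log2 fold change 0.16). Egr2 was at 158, 222 and 254 units in M0 and 11.5, 22.1 and 15.5 units in M1 (log2 fold change -3.71, SE 0.21, limma adjusted p = 1.7e-07), and on the M2 arrays at 1932 and 2070.2 units. Myc, a driver of growth, went from 179, 231 and 245 to 63.9, 86.8 and 83.6 units (log2 fold change -1.48, SE 0.15, limma adjusted p = 1.7e-05), and on the M2 arrays it was at 772 and 648 units. Both genes thus lay in the order M1, M0, M2 with no overlap between arrays. Batf rose from 258, 232 and 235 to 1853, 1966 and 1963 units (log2 fold change 3.00, SE 0.09, limma adjusted p = 1.6e-09), and its relatives Batf2 (0.79) and Batf3 (-0.68) moved apart. Cebpb, a factor of inflammatory gene expression, rose from 1718, 1575 and 1590.1 to 5330.1, 4515 and 5357 units (1.64) while Cebpa fell (-0.43) and Cebpd was not called (-0.15). Nfil3 (1.66), Bhlhe40 (1.48), Junb (1.19) and Klf4 (1.27) rose, and Maf (-1.82), Klf2 (-1.12), Tfec (-1.08) and Jun (-0.48) fell. Atf3 was bright and equal in mean, at 3564, 3420.2 and 3456 units in M0 and 3545, 3498 and 3415 units in M1 (0.00).

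Of 39 nuclear receptors and genes of lipid handling, 16 fell and 5 rose (median log2 fold change -0.16). PPARγ, Pparg, a lipid-activated receptor, was at 273, 362 and 315 units in M0 and 20.8, 18.5 and 27.3 units in M1 (log2 fold change -3.85, SE 0.16, limma adjusted p = 1.2e-08). The lipid chaperone Fabp4 went from 1459, 1221 and 1073 to 95.7, 181 and 91.5 units (log2 fold change -3.41, SE 0.23, limma adjusted p = 6.3e-07), and the lipid droplet coat Plin2 from 10957, 11542 and 12446 to 4889.7, 5565 and 4765 units (-1.20). The sterol hydroxylases went in opposite directions, Cyp27a1 falling (-2.84) and Ch25h, which makes the antiviral 25-hydroxycholesterol, rising from 20.1, 17.5 and 22.5 to 125, 155 and 207 units (2.99). The apolipoproteins Apoc1 (-1.59) and Apoe (-0.64), lipoprotein lipase Lpl (-0.70) and Acaa2, of fatty acid oxidation (-1.07), fell. With values under 64 units set to 64, Apoc1 was not called (-0.70, limma adjusted p = 0.199). The liver X receptor Nr1h3 (0.79), the desaturase Scd2 (0.66), Ppargc1b (0.72) and the vitamin D receptor Vdr (0.61) rose. The efflux pumps Abca1 (0.21) and Abcg1 (-0.05) were not called.

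Lysosomal hydrolases and proton pump subunits fell in 19 of 32 cases and rose in 3 (median log2 fold change -0.37). Atp6v0d2, a subunit of the proton pump of macrophages and osteoclasts, was at 2007, 2455 and 2995 units in M0 and 146, 133 and 148 units in M1 (log2 fold change -4.11, SE 0.14, limma adjusted p = 2.4e-09). Lysosomal acid lipase, Lipa, went from 6991, 7104 and 6927 to 1904, 2074 and 1647 units (log2 fold change -1.91, SE 0.11, limma adjusted p = 1.3e-07). Atp6v0a1 (-1.66), the mannosidase Man2b1 (-1.15) and the hexosaminidase Hexa (-0.79) fell. The pump subunits Atp6v0d1 (-0.36) and Atp6v1a (-0.30), also members of this list, fell by small steps. Atp6v1a lost its call in 5 of the 6 leave-one-out fits, with a replicate block (limma adjusted p = 0.0745) and with the mean over all its probes (limma adjusted p = 0.0597), and Atp6v0d1 in 2 of the 6. Cathepsin C, Ctsc (0.68), cathepsin Z, Ctsz (0.34), and Mcoln1 (0.39) rose, and 1 of these rises passed without the second M0 array. The call of Ctsz was lost in 4 of the 6 leave-one-out fits, and those of Ctsc (0.36) and Mcoln1 (0.13) with the mean over all probes of the gene (limma adjusted p = 0.141 and 0.33). Ctsd (-0.22), Grn (-0.10) and Npc2 (0.03) were bright and not called. Ctsb was not called on its brightest probe (-0.20) but was lower with the mean over all its probes (-1.41, limma adjusted p = 6.9e-07). With values under 64 units set to 64, Ctsb (limma adjusted p = 0.0209) and Ctsd (limma adjusted p = 0.0146) passed with the same log2 fold changes.

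In glycolysis and the pentose phosphate pathway 12 of 21 genes rose and 1 fell (median log2 fold change 0.37). Pfkfb3, whose product activates phosphofructokinase, was at 257, 250.3 and 287 units in M0 and 1874, 1388 and 1352 units in M1 (log2 fold change 2.53, SE 0.13, limma adjusted p = 7.1e-08). The factor Hif1a (1.60), the glucose transporter Slc2a1 (1.52), the phosphofructokinase Pfkl (1.41), the lactate exporter Slc16a3 (1.28) and the hexokinase Hk2 (1.27) followed. The later enzymes Tpi1 (0.53), Ldha (0.44), Aldoa (0.43) and Pgk1 (0.38) rose by about 0.5 or less on the log2 scale. Pgk1 lost its call in 5 of the 6 leave-one-out fits and with a replicate block (limma adjusted p = 0.0641), and Aldoa in 4 of the 6. Pdk1, which inhibits pyruvate dehydrogenase, fell (-0.75). Pkm (0.11), Tkt (-0.13), Pgd (-0.01) and Hk3 (-0.09) were not called.

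The TCA cycle and pyruvate dehydrogenase list held 7 raised and 7 lowered of 26 genes (median log2 fold change 0.09). Idh1, a cytosolic isocitrate dehydrogenase, fell from 2396, 2727 and 2749 to 951, 1161 and 967 units (log2 fold change -1.36, SE 0.11, limma adjusted p = 3.9e-06), and Suclg2 (-0.84), Mdh1 (-0.50), fumarase Fh1 (-0.50), Sdhc (-0.49), Glud1 (-0.42) and Idh3g (-0.39) fell. The pyruvate dehydrogenase subunits Dlat (0.87) and Pdhb (0.60), pyruvate carboxylase Pcx (0.66), the citrate carrier Slc25a1 (0.46), Mdh2 (0.44), Sucla2 (0.40) and Dlst (0.36) rose. Without the third M0 array 3 of the 7 rises passed, and with the mean over all probes of the gene Sucla2 (0.11, limma adjusted p = 0.38) and Dlst (0.11, limma adjusted p = 0.351) were not called. Sdhb (0.12), Sdhd (0.13), Sdha (-0.06) and Cs (0.09) were not called.

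Genes that produce or disarm reactive oxygen rose in 9 of 17 cases and 1 fell (median log2 fold change 0.43). Slc7a11, which imports cystine for glutathione, was at 75.2, 56.4 and 54.4 units in M0 and 2011, 761 and 1637 units in M1 (log2 fold change 4.47, SE 0.29, limma adjusted p = 5.0e-07). The mitochondrial superoxide dismutase Sod2 went from 3232, 2095 and 1788 to 13493, 12381 and 12381 units (log2 fold change 2.47, SE 0.18, limma adjusted p = 1.2e-06), whereas the cytosolic Sod1 was not called (-0.32). The NADPH oxidase subunits Ncf1 (1.15), Cybb (0.81) and Ncf4 (0.78) rose, and Cyba was not called (0.08). The GTPase Rac2 was higher on its brightest probe (0.47) but not with the mean over all its probes (0.01, limma adjusted p = 0.932). Glutathione reductase Gsr (1.54), Txnrd1 (0.60) and Gclc (0.41) rose, and glutathione peroxidase Gpx1 fell from 13824, 13925 and 13949.6 to 5703, 7571 and 5674 units (-1.15). Gpx4 (0.30), Gclm (0.43), Cat (-0.26), Srxn1 (0.17) and Nqo1 (0.03) were not called. Gclm was higher with the mean over all its probes (0.61, limma adjusted p = 0.00918).

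In iron handling 8 of 16 genes rose and 2 fell (median log2 fold change 0.28). The only known cellular iron exporter, ferroportin, Slc40a1, was at 1435, 1917 and 2392 units in M0 and 97.2, 72.5 and 100.5 units in M1 (log2 fold change -4.39, SE 0.18, limma adjusted p = 1.0e-08). It was also low on the M2 arrays, at 147 and 130.4 units. Besides Lcn2, the haemoglobin-binding haptoglobin Hp (2.32), the ferroxidase ceruloplasmin Cp (1.86), haem oxygenase Hmox1 (1.32), the phagosomal metal transporter Slc11a1 (0.56), Slc48a1 (0.56), Slc11a2 (0.43) and the dim hepcidin gene Hamp (0.52) rose. Slc11a2 was not called with the mean over all its probes (0.21, limma adjusted p = 0.0884). Steap3 fell (-1.16). The ferritin heavy chain Fth1, among the brightest probes at 26879, 27273 and 26901 units in M0 and 28328, 28062 and 28370.1 units in M1, was not called (0.06), nor were the transferrin receptor Tfrc (0.13), Ireb2 (0.12), Aco1 (-0.39), Steap4 (0.10) and lactoferrin Ltf (-0.09).

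Cytoskeletal, S100 and adhesion genes fell in 17 of 27 cases and rose in 6 (median log2 fold change -0.57). The LIM protein Crip1 was at 5909, 6206 and 6532 units in M0 and 305, 333 and 250.2 units in M1 (log2 fold change -4.40, SE 0.13, limma adjusted p = 1.2e-09). Besides S100a4, the S100 genes S100a6 (-2.58), S100a1 (-1.96) and S100a10 (-1.71) fell, while S100a8 (0.36) and S100a9 (-0.12) were not called. The integrins divided, with Itga6 (-1.72), Itgb5 (-1.61) and Itgb3 (-0.57) lower and Itgb8 (3.21), Itga5 (2.56), the LFA-1 chain Itgal (2.20), its partner Itgb2 (0.30) and Itga4 (0.79) higher. Itgb3 lay under 64 units on every M0 and M1 array. With values under 64 units set to 64, Itgb8 was not called (0.89, limma adjusted p = 0.155). The call of Itgb2 was lost in 5 of the 6 leave-one-out fits and with a replicate block (limma adjusted p = 0.0751). Itgal went from 1333, 1381 and 1225 to 6216, 5210.0 and 6798 units. The galectins Lgals1 (-1.06) and Lgals3 (-0.54), the annexins Anxa1 (-0.88) and Anxa2 (-0.48) and vimentin Vim (-0.78) fell from high levels. Tagln2 (-0.06) and Itgb1 (0.32) were not called.

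Of 26 matrix genes, proteases and their inhibitors, 10 rose and 8 fell (median log2 fold change 0.10). The clotting protease factor X, F10, was at 119, 73.1 and 82.7 units in M0 and 1273, 1103 and 1458 units in M1 (log2 fold change 3.83, SE 0.18, limma adjusted p = 4.3e-08), and thrombospondin Thbs1 went from 545, 526 and 1596 to 10802, 5188 and 8567 units (log2 fold change 3.34, SE 0.40, limma adjusted p = 6.4e-05). The matrix metalloproteinases divided, since the collagenase Mmp13 (3.39), the membrane-bound Mmp14 (2.12) and Mmp2 (0.94) rose and the elastase Mmp12 (-2.14), the gelatinase Mmp9 (-2.11) and Mmp8 (-0.59) fell. Their inhibitors Timp1 (1.20) and Timp2 (-2.42) moved apart as well. Timp2 went from 3210.2, 3388 and 3322 to 587, 746 and 544 units. The clotting transglutaminase F13a1 fell (-2.35), and Tgm2 (0.23), Sdc4 (-0.12), Plaur (-0.16) and the dim fibronectin Fn1 (0.06) were not called.

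The M1 arrays differed among themselves more than the M0 arrays. The median SD of log2 intensity over the 3 arrays was 0.18 in M1 and 0.15 in M0 for the 509 raised genes, and 0.21 in M1 and 0.17 in M0 for the 583 lowered genes. The second M1 array showed the smallest response. It was the lowest of the 3 for 270 of the 509 raised genes, against 123 and 116 for the others, and the highest for 367 of the 583 lowered genes, against 115 and 101. The median log2 difference from the M0 mean was 1.59, 1.41 and 1.52 for the raised genes on the 3 M1 arrays in the order of their labels, and -1.56, -1.36 and -1.55 for the lowered genes. An SD above 0.5 in M1 was found in 47 raised genes, of which 38 were lowest on the second array, and in 33 lowered genes, of which 27 were highest on it. The protease inhibitor Slpi was at 1602, 449 and 1234 units on the M1 arrays, after 255, 243 and 228 units in M0 (log2 fold change 1.99). The gap junction protein Gja1 was at 132, 33.0 and 165 units in M1, the second array being close to the 30.0, 28.5 and 29.6 units of M0 (1.61), and its call was lost in 5 of the 6 leave-one-out fits. Inhba was at 1267, 440.5 and 1504 units and Ccr7 at 685, 200.2 and 505 units in M1. In all 4 the second array was the lowest. Cxcl1, at 1463, 480.5 and 1214 units in M1 after 268, 180.3 and 229 units in M0, showed the same order. Shisa3 differed, with 71.3, 97.3 and 17.3 units in M1 and its lowest value on the third array. G530011O06Rik fell (-2.01) but was spread in both groups, at 611, 633 and 265 units in M0 and 107, 243 and 61.0 units in M1. The interferon-inducible GTPases, highest on this same second array, did not share the order of the cytokines.

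**Figure D5:**
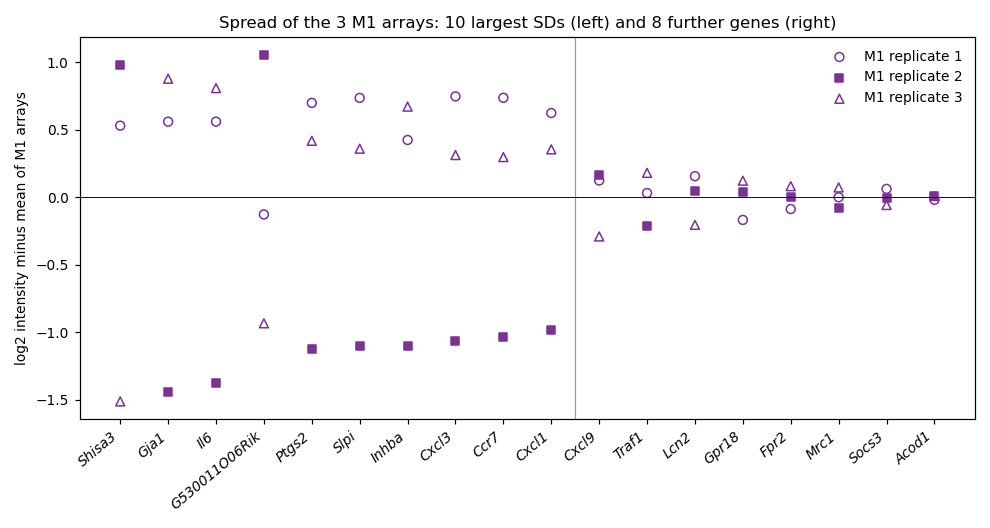
The y axis shows log2 intensity on each M1 array minus the mean of the 3 M1 arrays, with circles for replicate 1, filled squares for replicate 2 and triangles for replicate 3, for the 10 genes changed at least 2-fold with the largest SD over the M1 arrays (left) and 8 further genes, chosen after their values were seen (right). Replicate 2 is the lowest in 8 of the 10 genes on the left, whereas the 3 arrays lie close together for Cxcl9, Lcn2 and Fpr2.

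For some of the leading genes the levels on the 2 M2 arrays were set beside those of M1, in the same limma fit. Mrc1, Egr2 and Myc were lowest in M1 and highest in M2, Mrc1 being at 7263 and 7793 units on the M2 arrays (log2 fold change of M1 against M2 -7.57, adjusted p = 6.8e-11 from limma). Slc7a2 was at 2245 and 2665 units in M2, close to M1, and the difference was not called (0.23, limma adjusted p = 0.67). F10 at 911 and 1271 units (0.24, limma adjusted p = 0.52) and AA467197 at 1111 and 1436 units in M2 (0.67, limma adjusted p = 0.078) were likewise not called between M1 and M2. Adgb at 6.12 and 7.37 units (5.29, limma adjusted p = 5.1e-10) and Zfp811 at 10.1 and 9.92 units (4.95, limma adjusted p = 3.5e-10) were low in M2. The M2-associated gene Chil3 was at 26.5, 28.7 and 37.6 units in M0, 41.8, 20.5 and 31.5 units in M1 and 2144 and 2403 units in M2, with no call between M1 and M0 (-0.02).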

How the data were processed

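Deposited intensity values on a linear scale came from RMA, which the authors ran in GenePattern (Expression File Creator) on Affymetrix Mouse 430 2.0 arrays. Their log2 was taken, 64 control probes were left out and 45037 probes were tested with limma 3.58.1 in R 4.3.3 (lmFit and eBayes, all 8 arrays in 1 fit with a mean per condition, 5 residual degrees of freedom, contrast M1 minus M0, Benjamini-Hochberg over all probes). A gene took its probe of highest mean log2 intensity among 34945 probes with 1 symbol in the annotation; 932 had several and 9160 none listed. For 78 genes, probes passed in both directions. Probes were called at an adjusted p under 0.05 and 2-fold, genes in lists at that p alone.

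The comparison and the 31 lists (803 entries, 740 measured, 735 different genes) and 10 marker lists were chosen with earlier results of these data known. Genes named were the 25 largest rises and falls, up to 8 called and 4 uncalled members of a list, every member of lists of up to 20, those against a list's majority, those the study names, and those with the largest M1 spread. Other members named were chosen after their values were seen. No set tests were run. The procedure was tested on simulated data. Promoter windows were RefSeq's. Alternatives were the methods' t-test, a fit of 6 arrays, trend and robust variances, other thresholds, a limit of 64 units, further normalizations, all probes of a gene, a replicate block and each array left out. Image data and other assays were not analysed here. Figures used matplotlib 3.10.9 in Python 3.11.15.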

Additional observations from a re-analysis of the deposited data

How the results depend on the processing

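Of the 500 genes named, none that was called changed sign under an alternative, and 381 were on the same side of the threshold in all 10 alternatives run on single genes. With the mean over all probes of a gene, Hpgd (log2 fold change -0.30, limma adjusted p = 0.031) and Orc1 (-0.32, limma adjusted p = 0.011) were lower, while neither was called on its main probe. A further 14 genes gained a call under this mean, among them Ctsb (-1.41, limma adjusted p = 6.9e-07), and 11 lost it, among them Rac2 (0.01, limma adjusted p = 0.932), Ciita (-0.04, limma adjusted p = 0.852), Dlst (0.11) and Sucla2 (0.11). Other genes kept the call at a smaller size, among them Emp1 (-2.35), Slc9a9 (-2.08), Trem2 (-1.93), Lifr (-1.64), Cdca3 (-1.04) and Cxcl11 (2.38). Some, such as Lipa (-2.22), kept it at a larger size. Of the 372 called genes named, 76 lost the call with values under 64 units set to 64, and 7 with a replicate block, namely Atp6v1a, Cry2, Ctss, Igtp, Itgb2, Pgk1 and Serping1. The methods' t-test on linear values gave 904 probes higher and 1081 lower without adjustment at 0.05 with the 2-fold limit, and 641 and 833 after Benjamini-Hochberg adjustment, which the methods name. On log2 values it gave 795 and 926 after adjustment. A limit of 4-fold left 254 probes higher and 244 lower. With values under 64 units set to 64, genes lower in M1 numbered 1331, and in the following lists the count of called members changed by over 1.5 times. Cytokines kept 1 lower, chemokines 2, arginine metabolism 1, T cell costimulators 2, JAK and STAT genes 3, AP-1 and related factors 6, G1 regulators 4 and amino acid stress 1. Antiviral genes kept 11 higher and 0 lower, sensors 5 and 3, and MHC class II 3, uptake receptors 2, lipid handling 2, the TCA cycle 4 and the clock 1 higher. With all probes of a gene averaged, 1 lysosomal gene was higher and 1 zinc gene lower, and a fit of 6 arrays gave 2 lower NADPH oxidase and antioxidant genes. The causes were not tested.

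Leaving out each array in turn, the members lower numbered 1 to 2 in arginine metabolism, 1 in the antiviral list, 2 to 3 in MHC class II, 0 to 1 in the NF-κB list, 1 to 3 in amino acid stress and 1 to 2 among zinc genes, and the members higher 2 to 3 in Fc receptors and complement, 3 to 7 in the TCA cycle, 1 to 3 in the lysosomal list and 1 to 2 in the clock. Deviations of M0 and M1 arrays with the same number correlated at -0.17, 0.05 and -0.02, within the -0.15 to 0.19 of other pairs but for the lowest. The titles number the arrays alike in each condition, and so few arrays cannot show whether those of a number share a mouse. The main fit did not pair them. With a replicate block 2272 genes were higher and 1946 lower, and 1 clock gene was higher; no other list count moved by over 1.5 times. The number of arrays limits the precision, and 82 of the 509 raised genes had M0 levels under the array median.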

Other observations

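Of 24 genes of the amino acid stress response, 12 rose and 2 fell (median log2 fold change 0.55). Besides Slc7a11, the pseudokinase Trib3 went from 498, 355 and 223 units in M0 to 1032, 1461 and 1442 units in M1 (log2 fold change 1.93, SE 0.24, limma adjusted p = 8.7e-05), and the factors Atf4 (1.17) and Ddit3 (1.15), the mitochondrial folate enzyme Mthfd2 (1.32), asparagine synthetase Asns (0.63) and the tRNA synthetases Aars (1.09), Wars (0.74) and Gars (0.62) rose. The serine synthesis enzyme Psat1 (-0.71) and the glutamine transporter Slc1a5 (-0.66) fell, of which 1 passed without M0 replicate 1 or 2 or without M1 replicate 1 or 3, the 4 fits in which Psat1 lost its call. The M0 arrays differed in this list, the first being the highest of the 3 for 20 of the 24 genes, and the first M1 array was the lowest of the M1 arrays for 16. Ddit4 was at 119.6, 133 and 179.7 units in M0 and 577, 112 and 383 units in M1 and was not called (1.04).

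Regulators of cell death and phosphatases of MAP kinases rose in 9 of 24 cases and fell in 6 (median log2 fold change 0.24). The phosphatases Dusp2 (2.36), Dusp16 (1.73), Dusp1 (1.39) and Dusp4 (1.01) rose, and Dusp6 (-0.02), Dusp5 (-0.13) and Dusp10 (-0.03) were not called. The TNF receptor Tnfrsf1b rose from 2392, 2091 and 2260.2 to 8802, 7322 and 8978 units (log2 fold change 1.89, SE 0.11, limma adjusted p = 2.5e-07), while Tnfrsf1a fell (-0.40). The caspase 8 inhibitor Cflar (1.78), Fas (1.26) and Mlkl, the effector of necroptosis (1.18), rose, and the BH3-only genes Bcl2l11 (-1.44) and Pmaip1 (-0.82), the antiapoptotic Bcl2l1 (-0.56) and the kinase Ripk3 (-0.64) fell, though Pmaip1 lost its call in 4 of the 6 leave-one-out fits. Of 15 circadian clock genes 2 rose and 3 fell (median log2 fold change 0.05), shares near the 13.7% and 11.5% of all genes, with the repressor Cry1 (1.06) and Cry2 (0.42) higher and Nr1d2 (-1.21), Dbp (-1.11) and Rora (-0.80) lower. Of the clock rises 1 passed without M0 replicate 2 or 3 or without M1 replicate 1 or 2, where Cry2 lost its call. Of 12 metallothionein and zinc transporter genes 2 rose and 2 fell (median log2 fold change -0.06), shares near the same 13.7% and 11.5%. The metallothionein Mt2 rose from 768, 847 and 696 to 1461, 1682 and 1664 units (1.06) and Mt1 was not called (-0.26), Slc30a7 rose (0.48), and the importers Slc39a10 (-1.79) and Slc39a6 (-0.38) fell, of which 1 passed without the second M0 or the first M1 array.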
